A study of Mus musculus with 12 samples.

Results

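Matrix metalloproteinases are zinc-dependent proteases that cut collagens, laminins and other matrix proteins, and the tissue inhibitors of metalloproteinases (TIMPs) block them. Of these families 10 genes, Mmp2, Mmp3, Mmp7, Mmp9, Mmp11, Mmp13, Mmp14, Timp1, Timp2 and Timp3, were followed in mouse pancreas tumours, out of 30142 genes measured. They were chosen by symbol, each was covered by 1 probe set that the platform annotation gives to that symbol alone, and all 10 were measured. In build GRCm38.p6 Mmp13, Mmp3 and Mmp7 share chromosome 9 (chr9:7272514-7283333, chr9:7445822-7455975 and chr9:7692090-7699585), and the others are spread out. Mmp2 lies at chr8:92827290-92853421, Mmp9 at chr2:164940326-164955850, Mmp14 at chr14:54431598-54442456 and Mmp11 at chr10:75923221-75932502. Timp1 lies at chrX:20870166-20874737, Timp2 at chr11:118301061-118355411 and Timp3 at chr10:86300412-86349505. The tumours came from PKT mice of 2 lines, with 3 mice in each of 4 groups: FAP depleted, FAP-TK control, aSMA depleted and aSMA-TK control. All 4 groups carry the PKT genotype, a mouse model of pancreatic cancer whose alleles the labels do not spell out. FAP stands for fibroblast activation protein, the product of Fap, and aSMA for the smooth muscle actin that Acta2 encodes. TK is a thymidine kinase that makes ganciclovir toxic to the cells that carry it. The labels give ganciclovir at 50 ug per kg for all 12 mice and mark the controls as without depletion, so whether the controls received the drug is not clear. They give no age and name no promoter for the TK transgene beyond the name of each line.

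Most of these proteases are secreted as inactive zymogens, and a cysteine of the propeptide must be displaced from the catalytic zinc before they cut. In pancreatic tumours the stromal fibroblasts are known sources of Mmp2, Mmp11 and Mmp14, myeloid cells of Mmp9, and the metaplastic or transformed epithelium of Mmp7. Timp2 has a double role, since a Timp2 molecule bound to Mmp14 at the cell surface docks pro-Mmp2 for activation, while an excess of Timp2 inhibits both enzymes. In a whole tumour, fewer cells of a type and less RNA per cell cannot be told apart.

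Values are the authors' log2 array intensities after quantile normalization between arrays, and all differences are in these log2 units. Differences were tested with limma over all genes and called at a Benjamini-Hochberg adjusted p under 0.05. Control-probe separation, the median of the positive minus the median of the negative control probe sets, was under 3 on the arrays of FAP-TK control replicates 1 and 3 (2.97 and 2.99) and FAP depleted replicate 2 (2.69), and between 4.32 and 4.89 on the other 9. Fap was at 5.52, 5.34 and 6.21 after FAP depletion, against 6.56, 7.31 and 6.53 in the FAP-TK controls, a difference of -1.11 ± 0.37 (SE, adjusted p = 1.00 by limma) without overlap. Of all genes 2.50% were lower without overlap in that comparison. Acta2 was at 10.13, 13.86 and 15.28 in the tumours labelled aSMA depleted, against 12.26, 10.85 and 11.12 in their controls, so only 1 of the 3 was below every control and that group is named by its label throughout. Of 8 ductal epithelial markers such as Krt19 and Epcam, all 8 were above background on most arrays. A value is called above background where it exceeds the 95th percentile of the negative control probe sets of its array. By that measure Mmp7 was above background on 12 of 12 arrays, Mmp14 on 10, Mmp2 and Timp2 on 9, Timp1 on 4, and Mmp3, Mmp9, Mmp11, Mmp13 and Timp3 on none. Timp3 exceeded the median of the negative controls on all 12 arrays, Mmp9 and Mmp11 on 7, Mmp13 on 6 and Mmp3 on 2. Fap was above background on no array, so the size of its difference is uncertain. It exceeded the median of the negative controls on 11 arrays, with 2 of the 3 FAP depleted arrays among them.

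**Figure D1:**
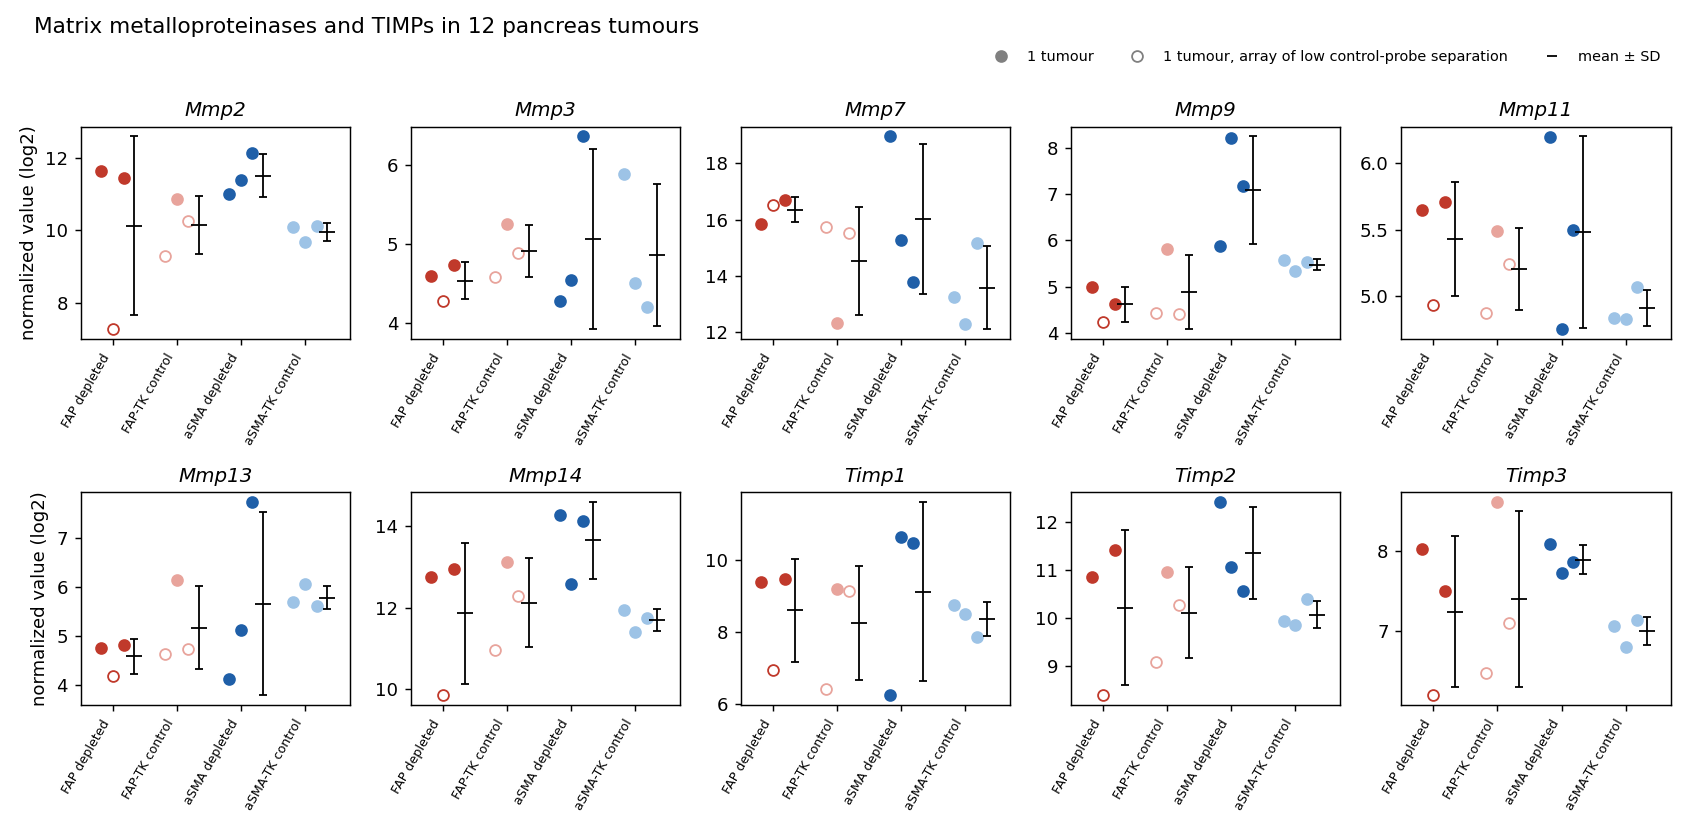
Normalized log2 value of each of the 10 genes in each tumour by group, with the mean and SD (n = 3) beside the points and open points for the 3 arrays of low control-probe separation; the axes do not start at 0. Mmp2, Mmp9, Mmp14, Timp2 and Timp3 lie higher in all 3 tumours labelled aSMA depleted than in all 3 aSMA-TK controls, while in the FAP line only Mmp7 separates the groups.

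None of the 10 genes passed the test in either depletion comparison, and limma called 0 of 30142 genes in each (0% in both). At an unadjusted p under 0.05 there were 2 members in the aSMA comparison, Mmp9 and Mmp14, where 4.81% of all genes were, and 0 members in the FAP comparison, where 3.71% of all genes were. In the aSMA line 5 of the 10, Mmp2, Mmp9, Mmp14, Timp2 and Timp3, were nevertheless higher in every tumour labelled aSMA depleted than in every aSMA-TK control, where 7.43% of all genes were. Their differences ran from 0.90 for Timp3 to 1.95 for Mmp14, each with an exact permutation p of 0.1 (two-sided), the smallest that 3 against 3 tumours allow. No member was lower without overlap, against 5.08% of all genes. In the FAP line 1 of the 10, Mmp7, was higher in every depleted tumour, where 5.60% of all genes were, and none was lower in every depleted tumour, where 2.50% of all genes were.

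Mmp14 encodes the membrane-anchored protease that activates pro-Mmp2 and cuts fibrillar collagen itself. It had values of 14.26, 12.57 and 14.11 in the tumours labelled aSMA depleted, against 11.94, 11.40 and 11.76 in the aSMA-TK controls. The groups did not overlap, and the difference was 1.95 ± 0.84 (SE, n = 3 per group; 95% interval 0.06 to 3.84). The unadjusted limma p was 0.0444 and the adjusted p 0.944. FAP depletion gave overlapping groups, with 12.76, 9.85 and 12.96 in the depleted tumours, against 10.96, 13.12 and 12.29 in the FAP-TK controls. The difference was -0.27 ± 0.84 (adjusted p = 1.00 by limma). Without FAP depleted replicate 2, the tumour at 9.85, it was 0.73, and without FAP-TK control replicate 1 it was -0.86.

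Mmp2, gelatinase A, degrades denatured collagen and the type IV collagen of basement membranes. Its values were 11.00, 11.40 and 12.15 in the tumours labelled aSMA depleted, against 10.08, 9.67 and 10.12 in the aSMA-TK controls. Every depleted tumour was above every control, by 1.56 ± 0.99 on average (adjusted p = 0.944 by limma). In the FAP line Mmp2 was at 11.65, 7.27 and 11.46 in the depleted tumours, against 9.29, 10.88 and 10.27 in the FAP-TK controls. Depleted replicates 1 and 3 were above all controls and replicate 2 below all of them, so the mean difference of -0.02 ± 0.99 stood for no single tumour. Without replicate 2 it was 1.41, and without FAP depleted replicate 1 it was -0.78.

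Timp2, the inhibitor that bridges the other 2 proteins, had 12.41, 11.07 and 10.56 in the tumours labelled aSMA depleted, against 9.94, 9.86 and 10.39 in the aSMA-TK controls. The groups were close at their edges, 10.56 against 10.39, and differed by 1.28 ± 0.79 (adjusted p = 0.944 by limma). After FAP depletion it stood at 10.85, 8.39 and 11.41, against 9.08, 10.96 and 10.28 in the FAP-TK controls. The difference was 0.11 ± 0.79, and 1.03 without FAP depleted replicate 2.

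Timp3, which stays bound to the matrix and also inhibits sheddases such as Adam17, varied little in the aSMA line. Its values were 8.09, 7.72 and 7.86 in the tumours labelled aSMA depleted, against 7.06, 6.79 and 7.13 in the aSMA-TK controls. The difference of 0.90 ± 0.55 compares with SDs of 0.19 and 0.18 within the groups, but the limma error is shared with the FAP line and the adjusted p was 0.944. Fitted on the aSMA line alone the error was 0.15 and the adjusted p 0.715. In the FAP line Timp3 was at 8.03, 6.19 and 7.50 in the depleted tumours, against 6.47, 8.61 and 7.10 in the controls. That difference of -0.15 ± 0.55 was 0.45 without FAP-TK control replicate 2 and -0.62 without FAP-TK control replicate 1.

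Timp1, a secreted inhibitor that blocks most metalloproteinases but Mmp14 only weakly, differed more between tumours than between groups. It was at 6.26, 10.64 and 10.47 in the tumours labelled aSMA depleted, against 8.77, 8.50 and 7.86 in the aSMA-TK controls. Labelled aSMA depleted replicate 1 was thus the lowest of the 6 tumours of its line and the other 2 the highest, and the mean difference was 0.75 ± 1.23 (adjusted p = 0.962 by limma). In the FAP line the values were 9.39, 6.96 and 9.47 in the depleted tumours, against 6.44, 9.19 and 9.16 in the controls. Each group held 1 low tumour, on an array of low separation in both cases, and the difference was 0.34 ± 1.23 (adjusted p = 1.00), or 1.17 without FAP depleted replicate 2 and -0.57 without FAP-TK control replicate 1.

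Mmp9, gelatinase B, is carried in neutrophil granules and made by macrophages. It was at 5.89, 8.22 and 7.18 in the tumours labelled aSMA depleted, against 5.57, 5.34 and 5.53 in the aSMA-TK controls. The difference was 1.61 ± 0.55 (95% interval 0.39 to 2.84), with an unadjusted limma p of 0.0150 and an adjusted p of 0.944. All 6 values were above the negative-control median and none above the background limit, so its size is uncertain. Mmp9 in the FAP line was at 4.98, 4.24 and 4.62 in the depleted tumours, against 4.42, 5.81 and 4.41 in the controls, and only the tumour at 5.81 exceeded the negative-control median. Neutrophil markers did not separate the aSMA groups: their mean ran from 6.01 to 7.60 in the tumours labelled aSMA depleted and from 6.32 to 7.74 in the aSMA-TK controls. Of these 8 genes 3 were higher and 5 lower, Mpo and Elane never exceeded the negative-control median, and S100a8 was at 11.91, 12.15 and 8.06 in the tumours labelled aSMA depleted, against 13.23, 11.48 and 9.21 in the aSMA-TK controls. Retnlg had the list's largest difference, 2.54 with an unadjusted p of 0.0447 (adjusted p = 0.944 by limma), at 8.42, 9.65 and 5.83 in the tumours labelled aSMA depleted, against 6.43, 4.78 and 5.08 in the aSMA-TK controls. The part of neutrophils in the Mmp9 values was not tested.

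Mmp7, matrilysin, is a small protease without the hemopexin domain of its relatives and is made by epithelial cells. Its values were 15.85, 16.51 and 16.70 in the FAP depleted tumours, against 15.72, 12.30 and 15.53 in the FAP-TK controls. The groups did not overlap, but the controls at 15.72 and 15.53 lay close under the lowest depleted tumour, and the difference of 1.84 ± 1.35 (adjusted p = 1.00 by limma) was 0.75 without FAP-TK control replicate 2. In the aSMA line Mmp7 was at 18.97, 15.27 and 13.78 in the tumours labelled aSMA depleted, against 13.26, 12.28 and 15.18 in the aSMA-TK controls. These groups overlapped, and the difference of 2.43 ± 1.35 (adjusted p = 0.944) was 0.96 without labelled aSMA depleted replicate 1, the tumour at 18.97. Beside these values, the ductal epithelial marker mean was 15.66 ± 0.88 (SD, n = 3) in the FAP depleted tumours and 14.93 ± 0.69 in the FAP-TK controls. It was 15.76 ± 0.12 in the tumours labelled aSMA depleted and 15.85 ± 0.43 in the aSMA-TK controls, and its part in the Mmp7 values was not tested.

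The remaining members are a stromelysin (Mmp3), the main interstitial collagenase of the mouse (Mmp13) and a stromal protease that is activated inside the cell (Mmp11). Mmp13 was at 4.11, 5.11 and 7.75 in the tumours labelled aSMA depleted, against 5.69, 6.06 and 5.61 in the aSMA-TK controls, so replicate 3 alone stood above the controls. Mmp3 was at 4.28, 4.54 and 6.37 in the tumours labelled aSMA depleted, against 5.89, 4.50 and 4.20 in their controls. The tumour with the highest value was again labelled aSMA depleted replicate 3, followed by aSMA-TK control replicate 1. Mmp11 was at 6.19, 4.75 and 5.50 in the tumours labelled aSMA depleted, against 4.84, 4.83 and 5.07 in their controls, and the groups overlapped through labelled aSMA depleted replicate 2.

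In the FAP line Mmp13 was at 4.75, 4.17 and 4.80 in the depleted tumours, against 4.62, 6.15 and 4.73 in the FAP-TK controls. Mmp3 was at 4.60, 4.28 and 4.73 in the depleted tumours, against 4.59, 5.26 and 4.89 in the controls. Mmp11 was at 5.65, 4.93 and 5.70 in the depleted tumours, against 4.88, 5.49 and 5.24 in the controls. All these groups overlapped, the differences were -0.59 ± 0.78 for Mmp13, -0.38 ± 0.56 for Mmp3 and 0.22 ± 0.34 for Mmp11, and of the 6 arrays of this line Mmp11 exceeded the negative-control median on 3, Mmp13 on 1 and Mmp3 on 0.

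**Figure D2:**
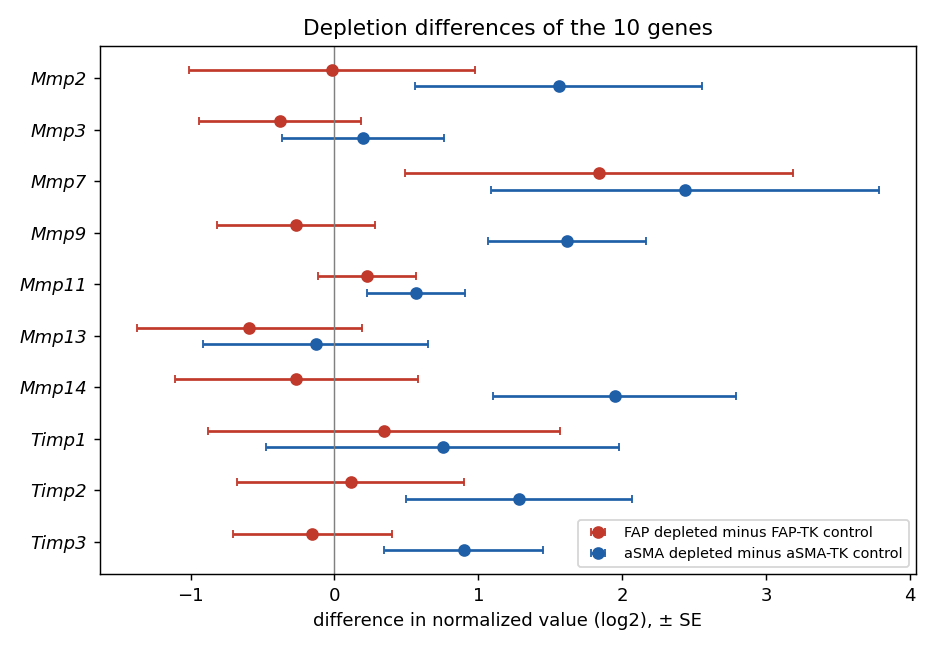
Difference between depleted and control tumours of each line for the 10 genes, in log2 units with the standard error of the limma fit over 12 arrays. The aSMA differences lie above 0 for 9 genes and run from -0.13 to 2.43, and the FAP differences lie on both sides of 0.

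As a group, 9 of 10 members had a difference above 0 in the aSMA comparison, with a median of 1.09, where 53.2% of all genes were above 0 and their median was 0.01. The exception, Mmp13 at -0.13 ± 0.78, turned to 0.01 with median centring and to 0.11 with an offset of 50. In the FAP comparison 4 of 10 were above 0 with a median of -0.09, against 59.9% of all genes and a median of 0.04, and Mmp2 turned to 0.07 with an offset of 50. That count depended on single tumours. It was 8 of 10 when the second FAP-TK control was left out and 7 when the second FAP depleted tumour was. It was 2 when the first FAP-TK control, or the first or the third FAP depleted tumour, was left out. In the aSMA comparison it stayed between 8 and 10 with any 1 tumour left out. The 5 members without overlap stayed so, an outcome that leaving out a tumour can hardly change, since it removes values and adds none. The number higher without overlap became 6, with Mmp7, when the third tumour of either aSMA group was left out. Of all genes 17.6% were then higher without overlap (control left out) or 14.6% (labelled tumour left out). The number was also 6 without the first labelled tumour (with Timp1, 12.2% of all genes) or without the second (with Mmp11, 12.8%). In the FAP comparison it was 4 without FAP depleted replicate 2, where Mmp2, Mmp11 and Timp1 joined Mmp7 (18.7% of all genes). Lower without overlap was 1 member without labelled aSMA depleted replicate 3, and 1 in the FAP line without FAP-TK control replicate 1. The shares of all genes lower without overlap were not computed for these, so these counts cannot be read as results about the members. In the same settings 14.6% (aSMA) and 11.3% (FAP) of all genes were higher without overlap.

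The difference between the depletion effects of the lines, aSMA minus FAP, was above 0 for 10 of 10 members, against 46.4% of all genes, and none passed (smallest adjusted p = 0.829 by limma, 0% of all genes called). At an unadjusted p under 0.05 there was 1 member, against 5.96% of all genes. It was 2.21 ± 1.19 for Mmp14, 1.88 ± 0.77 for Mmp9 with an unadjusted p of 0.0361, 1.57 ± 1.41 for Mmp2, 1.17 ± 1.11 for Timp2 and 1.05 ± 0.78 for Timp3. For Mmp7, Timp1, Mmp3, Mmp13 and Mmp11 it lay between 0.34 and 0.60, with errors of 0.48 or more. Each of these 5 turned below 0 with some single tumour left out. Mmp9, Mmp14, Mmp2, Timp2 and Timp3 stayed above 0, but without FAP depleted replicate 2 the difference was 0.15 for Mmp2, 0.25 for Timp2 and 1.21 for Mmp14.

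Between the control groups of the lines no member passed the test, where limma called 7.80% of all genes. Mmp14 averaged 11.70 ± 0.27 in aSMA-TK control tumours and 12.12 ± 1.09 in FAP-TK control tumours (SD, n = 3 each). For Mmp7 the mean was 13.57 ± 1.48 in aSMA-TK control and 14.52 ± 1.92 in FAP-TK control tumours. Of the 10 differences 3 were above 0, where 58.2% of all genes were. They ran from -0.94 for Mmp7 to 0.62 for Mmp13, and no member was free of overlap, where 35.0% of all genes were in either direction. The negative-control median as deposited was between 4.46 and 4.88 on the arrays of the aSMA line and between 5.46 and 6.49 on those of the FAP line, so line and array background cannot be told apart. Timp3, at -0.40 ± 0.55, passed at -1.51 (adjusted p = 0.0331) with separation as a covariate and at -1.65 (adjusted p = 0.0443) without the 3 arrays of low separation, which leaves 1 FAP-TK control whose spread is taken from the other groups. With separation as a covariate 1012 of 30142 genes were called in this comparison. Mmp11 passed at -0.96 (adjusted p = 0.0319) with the values as deposited. In that setting 12443 genes were called, and 3.41% of these were higher in the aSMA-TK controls. All 10 members were then below 0, and the median of all genes was -0.39.

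Across the 4 groups every member except Mmp7 and Mmp13 had its highest mean in the tumours labelled aSMA depleted, although for Mmp3, Mmp11 and Timp1 the group means differed by less than the SD of that group. For Mmp14 that mean was 13.65 ± 0.94, and the other means lay within 0.43 of each other, less than the SD of either FAP group. For Mmp2 it was 11.51 ± 0.58, and the FAP depleted, FAP-TK control and aSMA-TK control means were 10.13 ± 2.48, 10.14 ± 0.80 and 9.96 ± 0.25. For Timp2 it was 11.35 ± 0.96, with the others between 10.06 and 10.22. Mmp7 had means of 16.35 ± 0.45 after FAP depletion and 16.01 ± 2.67 in the tumours labelled aSMA depleted, above both control groups. The spread differed between groups: the median SD of the 10 members was 0.70 in the FAP depleted tumours, 0.90 in the FAP-TK controls, 1.05 in the tumours labelled aSMA depleted and 0.26 in the aSMA-TK controls.

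**Figure D3:**
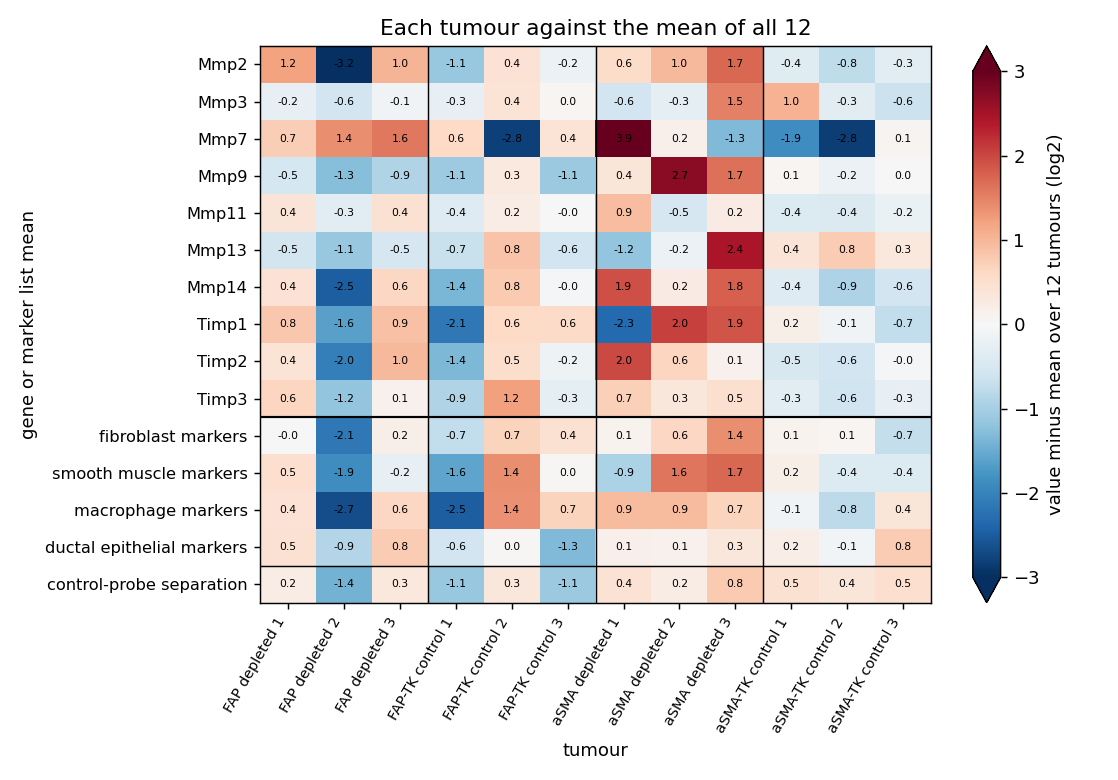
Each value minus the mean of its row over the 12 tumours (log2), for the 10 genes (top), the means of 4 marker lists (middle) and control-probe separation (bottom), with colours ending at 3 in either direction. FAP depleted replicate 2 and FAP-TK control replicate 1 are low in Mmp2, Mmp14, Timp1, Timp2 and Timp3 together with the stromal and macrophage lists and with separation. FAP-TK control replicate 3, also of low separation, was higher than both in these genes and lists. Before centring, its fibroblast and macrophage marker means were 9.92 and 10.65, against 8.74 and 7.51 in FAP-TK control replicate 1.

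Marker lists of other cell types were set beside these genes. In the aSMA comparison all 9 measured fibroblast markers had differences above 0, and their mean was 10.18 ± 0.65 (SD, n = 3) in the tumours labelled aSMA depleted and 9.29 ± 0.46 in the aSMA-TK controls, with a lowest depleted and a highest control value of 9.58 each. All 9 macrophage markers were above 0 as well, averaging 10.83 ± 0.16 in the labelled tumours and 9.80 ± 0.58 in the controls without overlap. All 6 smooth muscle markers were above 0, averaging 8.24 ± 1.51 in the labelled tumours and 7.23 ± 0.34 in the controls with overlap. So were 4 of 4 islet, 5 of 6 endothelial, 4 of 5 T cell and 4 of 7 acinar markers. In the FAP comparison all 9 fibroblast markers were below 0, with means of 8.81 ± 1.29 in the depleted tumours and 9.60 ± 0.75 in the FAP-TK controls. There 2 of 9 macrophage and 2 of 6 smooth muscle markers were above 0, with 4 of 4 islet, 4 of 6 endothelial, 1 of 5 T cell and 7 of 7 acinar markers. No marker of these lists was called by limma in either depletion comparison, and their part in the metalloproteinase values was not tested.

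Relations between members were computed on values minus their group mean over the 12 tumours, with exact p-values from the 1296 rearrangements within groups. None of the 45 pairs passed a Benjamini-Hochberg adjustment. Mmp14 and Mmp2 had r = 0.87 (exact permutation p = 0.0432, adjusted 0.149) and rho = 0.80 (exact p = 0.0340, adjusted 0.142). Without the 2 tumours farthest in Mmp2, r was 0.74, but it was 0.97 in the FAP line and 0.19 in the aSMA line, so it rested on the FAP line. Mmp14 and Timp2 had r = 0.86 (exact permutation p = 0.0316, adjusted 0.119) and rho = 0.85 (exact p = 0.0100, adjusted 0.0752), with 0.65 without the 2 farthest tumours, 0.99 in the FAP line and 0.32 in the aSMA line. Without the 3 arrays of low separation these r were 0.17 and 0.34. Mmp7 ran against Mmp13, with r = -0.84 (exact permutation p = 0.00849, adjusted 0.0833) and rho = -0.76 (exact p = 0.0285, adjusted 0.142). That relation was -0.70 without the 2 farthest tumours, -0.92 in the FAP line, -0.82 in the aSMA line and -0.81 without the arrays of low separation. However, Mmp13 was above background on no array. It exceeded the negative-control median on 6 of 12, with 1 FAP-TK control and no FAP depleted array among them.

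**Figure D4:**
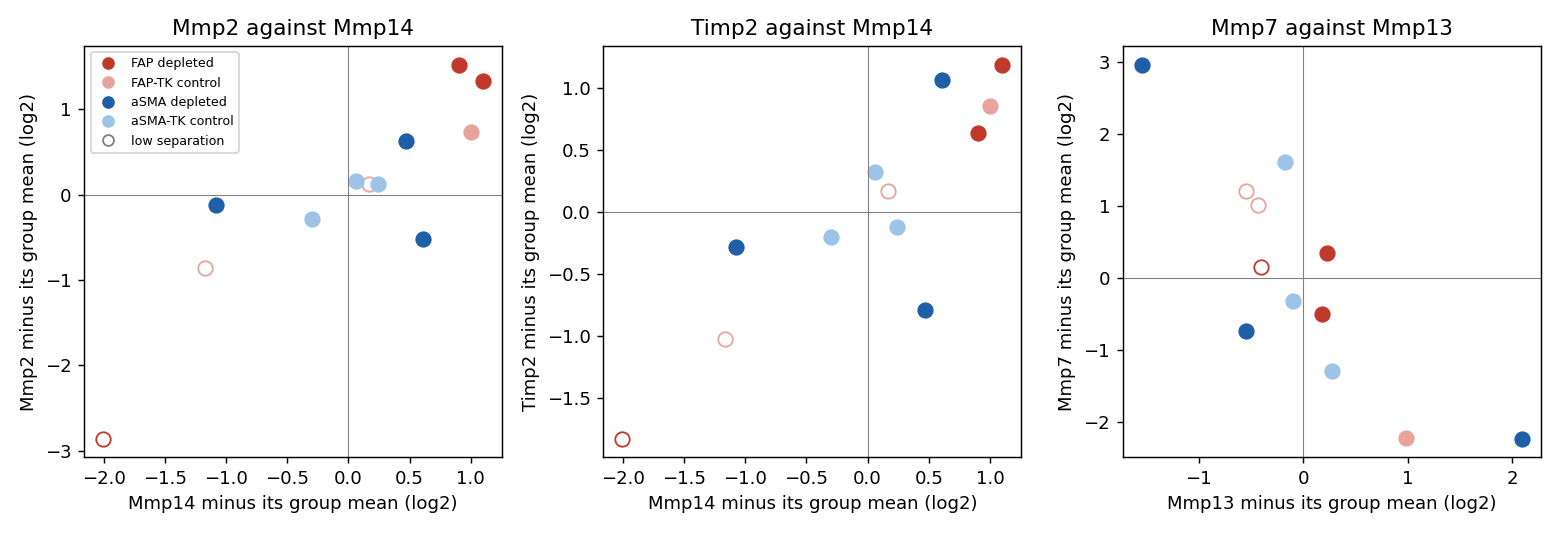
Value of 1 gene minus its group mean against that of another (log2) in each of the 12 tumours, coloured by group, with open points for arrays of low control-probe separation. Mmp2 and Timp2 follow Mmp14 more closely in the FAP line (r = 0.97 and 0.99) than in the aSMA line (0.19 and 0.32), a difference that was not tested, while Mmp7 runs against Mmp13 in both lines. Mmp13 was above background on no array.

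Control-probe separation ran with several of the genes. Its r was 0.92 with Timp3, 0.88 with Mmp14 and 0.87 with Mmp2 (exact permutation p = 0.0440, 0.0100 and 0.0208, adjusted over 100 relations 0.157, 0.110 and 0.110), and rho was 0.92, 0.89 and 0.90 (exact p = 0.0247, 0.00926 and 0.00772, adjusted 0.111, 0.0836 and 0.0836). In the same order, r without its 2 farthest tumours was 0.81, 0.79 and 0.86. Within the aSMA line, where no array had low separation, they were 0.32, 0.75 and 0.75. With separation as a covariate the aSMA differences were 1.90 for Mmp14, 1.496 for Mmp2, 1.597 for Mmp9, 1.24 for Timp2 and 0.86 for Timp3, and the FAP differences were -0.78 for Mmp14 and -0.62 for Mmp2. Timp1 ran with the smooth muscle markers, at r = 0.93 (exact permutation p = 0.00849, adjusted 0.110) and rho = 0.85 (exact p = 0.00772, adjusted 0.0836), and at 0.91 in the FAP line, 0.99 in the aSMA line and 0.86 without the 2 farthest tumours. Mmp2 ran with the fibroblast markers, at r = 0.90 (exact permutation p = 0.0177, adjusted 0.110) and rho = 0.88 (exact p = 0.0177, adjusted 0.0986), and at 0.97 in the FAP line, 0.64 in the aSMA line and 0.77 without the 2 farthest tumours. No r of the 100 passed the adjustment, and by rho 2 did. Mmp3 and the fibroblast markers had rho = 0.71 (exact p = 0.000772, adjusted 0.0386) and r = 0.59 (exact p = 0.00231, adjusted 0.0772), with r = 0.71 without the 2 farthest tumours. However, Mmp3 was above background on no array. It exceeded the negative-control median on only 2 arrays, none of them in the FAP line, so most of its values lay under that median. Timp2 and the macrophage markers had rho = 0.87 (exact p = 0.000772, adjusted 0.0386) and r = 0.86 (exact p = 0.000772, adjusted 0.0772), with r = 0.69 without the 2 farthest tumours and 0.43 in the aSMA line. An exact p of 0.000772 is the smallest these rearrangements can give.

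The start regions of these genes fall into distinct kinds, shown here because Mmp3, Mmp13 and Mmp7 share sequence features, although Mmp7 ran against Mmp13 across the tumours. RefSeq start regions of build GRCm38.p6 were given for 8 of the 10 genes, and the 120 bases before each start were searched on both strands for TGACTCA or TGAGTCA (the site of AP-1, the Fos and Jun factors), for TATAAA and for GGGCGG (a GC box). Capitals mark the matches. The genes lie on chromosome 9, and the windows are chr9:7445702-7445821 for Mmp3, chr9:7272394-7272513 for Mmp13 and chr9:7691970-7692089 for the first of the Mmp7 starts, all on the plus strand.
Mmp3: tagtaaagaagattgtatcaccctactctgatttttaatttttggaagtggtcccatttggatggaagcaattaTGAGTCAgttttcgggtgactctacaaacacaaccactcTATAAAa
Mmp13: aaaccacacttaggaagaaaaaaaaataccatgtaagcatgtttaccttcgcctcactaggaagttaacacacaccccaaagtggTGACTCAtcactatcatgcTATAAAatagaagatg
Mmp7: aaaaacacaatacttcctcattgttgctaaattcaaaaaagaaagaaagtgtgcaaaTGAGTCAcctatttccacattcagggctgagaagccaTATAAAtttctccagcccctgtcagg

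All 3 windows shown hold an AP-1 match and a TATA match. The window of the other Mmp7 start (chr9:7692221-7692340) holds neither, nor a GC box. The AP-1 match begins 46 bases before the start in Mmp3, 35 in Mmp13 and 63 before the first start in Mmp7. It occurs in 2.3% of the 32851 RefSeq start regions in a window of this length, and TATAAA in 6.34%. Of 13 other Mmp genes with an entry, Mmp1a, Mmp1b, Mmp10 and Mmp12 hold the AP-1 match. Mmp3 and Mmp13 had r = 0.76 (exact permutation p = 0.0301, adjusted 0.119) and rho = 0.69 (exact p = 0.0378, adjusted 0.142), with 0.77 without the 2 farthest tumours, 0.91 in the FAP line and 0.75 in the aSMA line, whereas Mmp7 ran against Mmp13. Both Mmp3 and Mmp13 were above background on no array.

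The other kind of window holds GC boxes. Those of Mmp14 (chr14:54431478-54431597, plus strand), Timp2 (chr11:118355412-118355531, minus strand) and Timp3 (chr10:86300292-86300411, plus strand) are shown because these genes were among the 5 whose groups did not overlap in the aSMA line.
Mmp14: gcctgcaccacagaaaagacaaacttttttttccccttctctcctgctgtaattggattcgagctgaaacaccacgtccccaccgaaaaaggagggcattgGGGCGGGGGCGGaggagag
Timp2: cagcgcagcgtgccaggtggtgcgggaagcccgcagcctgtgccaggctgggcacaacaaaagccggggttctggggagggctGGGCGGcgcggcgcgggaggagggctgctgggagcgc
Timp3: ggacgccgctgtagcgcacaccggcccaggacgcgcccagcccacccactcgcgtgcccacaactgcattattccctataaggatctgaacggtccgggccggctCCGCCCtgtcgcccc

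Each holds a GC box, 2 side by side in Mmp14 and 1 on the opposite strand in Timp3, and none holds TATAAA or the AP-1 letters in this window. Mmp11 and Timp1, whose groups overlapped in the aSMA line, also hold a GC box, which 26.5% of all start regions do. No start region was given for Mmp2 and Mmp9, the other members whose groups did not overlap there. The matches are letters in the reference sequence, and no binding was measured.

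The wider system was followed in 6 further lists with 69 measured genes, none of which was called in either depletion comparison. Among the 15 other metalloproteinase genes, 7 were above 0 after FAP depletion and 10 in the aSMA comparison, with medians of -0.00127 and 0.08. Mmp8, the collagenase of neutrophils, had the smallest p of them in the aSMA comparison at 1.82 ± 0.85 (adjusted p = 0.944 by limma), with 8.45, 7.54 and 6.20 in the tumours labelled aSMA depleted, against 6.41, 4.63 and 5.68 in the aSMA-TK controls. It was above background on no array and exceeded the negative-control median on 9. The next smallest p was that of Mmp21 at 0.17 ± 0.10, and in the FAP comparison came Mmp20 at 0.18 ± 0.09 and Mmp16 at -0.11 ± 0.09, all 3 under the negative-control median on every array. Mmp20, an enamel protease, was the 1 gene of these 6 lists called between the control groups (0.43 ± 0.09, adjusted p = 0.0291 by limma), at values where no array exceeded that median.

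Of 3 other inhibitors, Reck, a membrane-anchored inhibitor of Mmp2, Mmp9 and Mmp14, was at 6.21, 5.75 and 6.00 in the tumours labelled aSMA depleted, against 5.53, 5.32 and 5.33 in the aSMA-TK controls. Its groups did not overlap, and the difference was 0.59 ± 0.23 (unadjusted p = 0.0270, adjusted p = 0.944 by limma). Timp4 was at 0.19 ± 0.10 there. After FAP depletion Reck was at -0.26 ± 0.23 and A2m, a plasma protease trap, at 0.98 ± 0.71. All 3 were above background on no array. Reck exceeded the negative-control median on 8 arrays, A2m on 6 and Timp4 on none.

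Of 11 genes of zymogen activation and matrix uptake, 7 were above 0 in the FAP comparison and 8 in the aSMA comparison. Plat, tissue plasminogen activator, which generates the plasmin that can activate Mmp3 and Mmp9, had 12.94, 9.59 and 12.83 in the FAP depleted tumours, against 8.41, 9.81 and 9.11 in the FAP-TK controls, a difference of 2.68 ± 0.77 (unadjusted p = 0.00618, adjusted p = 1.00 by limma). In the aSMA line it had 11.22, 11.51 and 10.77 in the labelled tumours, against 9.73, 9.98 and 10.08 in the controls, without overlap and with a difference of 1.23 ± 0.77. Lrp1, an endocytic receptor that clears several metalloproteinases, was at 0.77 ± 0.70 in the aSMA comparison, also without overlap, and Elane at 0.12 ± 0.08 in the FAP comparison. Elane exceeded the negative-control median on no array.

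**Figure D5:**
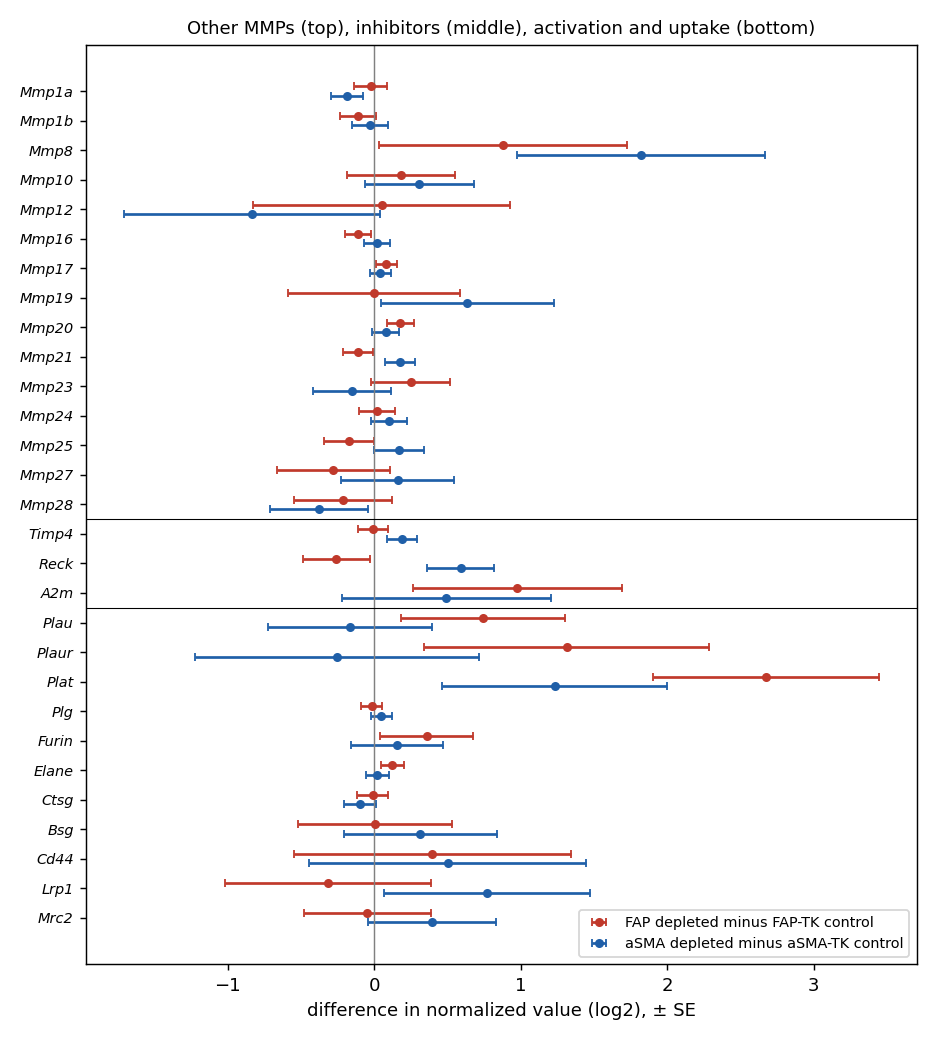
Difference between depleted and control tumours of each line in log2 units, with the standard error of the limma fit, for 15 other metalloproteinase genes, 3 other inhibitors and 11 genes of activation and matrix uptake. Plat lies farthest from 0 in the FAP comparison (2.68) and Mmp8 in the aSMA comparison (1.82), and neither was called. Mmp8 was above background on no array.

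Among 13 related proteases of the Adam and Adamts families, 13 were above 0 in the aSMA comparison with a median of 0.23, and 4 in the FAP comparison. Adam8, a myeloid and tumour cell sheddase, was at 1.49 ± 0.77 and Adamts4 at 1.06 ± 0.71 in the aSMA comparison, and Adamts1 at 1.64 ± 0.49 and Adam10 at 0.73 ± 0.39 in the FAP comparison. Of 15 inducers of metalloproteinase genes, 10 and 12 were above 0 in the aSMA and FAP comparisons. In the aSMA comparison Il6 was at 1.74 ± 1.33, set by 1 tumour at 9.40 beside 3.35 and 4.13, and Il1a at -1.52 ± 1.28. After FAP depletion Ets1 was at 0.79 ± 0.46 and Osm at 0.32 ± 0.21. Of 12 matrix substrates, 10 were above 0 in the aSMA comparison and 7 in the FAP comparison. The laminin gene Lama3 was at -0.80 ± 0.48 in the first and 0.85 ± 0.48 in the second, the perlecan gene Hspg2 at 0.89 ± 0.59 in the first and the collagen gene Col4a3 at 0.11 ± 0.08 in the second. Osm and Col4a3 exceeded the negative-control median on no array. Adamts4, Ets1 and Lama3 were above background on none, Adam8, Adamts1 and Il6 on 1 and Hspg2 on 3.

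The genes most alike each member were sought among 30141 others by Pearson correlation of group-centred values over the 12 tumours, as a description. Mmp14 was most like Tpst2 and Fblim1, Mmp2 most like Pdk3 and Lman1, Timp2 most like Tcaf2 and Nudt6, Timp3 most like Dad1 and Hgf, and Timp1 most like Rplp1-ps1 and Fkbp11. Mmp7 was most like Pcm1 and Zmym4, Mmp9 most like Olfr1135 and Morn3, Mmp11 most like Itga11 and Slco2b1, Mmp13 most like Angpt4 and Fkbp8, and Mmp3 most like Gm15281 and Gm2892. These 20 correlations lay between 0.954 and 0.992. They are the highest of many, all 12 arrays share the spread in separation, and 14 of the 20 genes were above background on no array.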

How the data were processed

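Each tumour was measured on 1 one-colour array. The deposited table holds the authors' log2 values for 72688 probe sets, a scale read from the values (1.64 to 19.93), and limma is named, with no version, per the submitters' processing notes. How arrays were background-corrected and summarized is not stated in these sources. After 6732 control probe sets were left out, 65956 were quantile normalized, since the column medians differed. Probe sets with exactly 1 symbol (30604) were kept, 827 symbols were updated through RefSeq identifiers, and the highest-mean probe set of each gene gave 30142 genes. limma 3.58.1 (R 4.3.3, with statmod 1.5.0) fitted 1 mean per group over all 12 arrays, with Benjamini-Hochberg adjustment over all genes, and was tested on simulated data. For either sign it called 42 of 50 genes at a true difference of 3 and 21 of 50 at 1.5. It also made 16 false calls among the genes left unchanged. The changes were planted only in brighter genes, above the level of Mmp3, Mmp9, Mmp11 and Mmp13. The simulated noise was independent between genes and arrays, so the counts called do not carry over to those members. Exact permutation tests of 3 against 3 cannot go below 0.1. The 10 members and all further lists were chosen with earlier results of these data known. Named genes are the members, Fap, Acta2, the 2 of smallest p per further list and depletion comparison, the 2 most alike each member, and markers or called genes that a result touches. Alternatives covered normalization, dim genes, probe sets, variance model, array weights, arrays left out and, chosen after seeing the data, separation as a covariate. The number of arrays limits the precision.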

Additional observations from a re-analysis of the deposited data

How the results depend on the processing

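Of 870 values of the members under the alternatives, 796 kept their direction and their side of the threshold, 71 reversed and 3 passed it (given above for Timp3 and Mmp11 between the control groups). No member was called in a depletion comparison under any alternative run, the smallest adjusted p by limma being 0.305 for FAP and 0.576 for aSMA. The direction held everywhere for 4 of 10 members in the FAP comparison, 7 in the aSMA comparison, 5 in the difference of effects and 1 between the control groups. Genes called numbered 13 after FAP depletion without the 3 arrays of low separation, where 2 depleted tumours met 1 control assumed to vary like the other groups, and 0 to 4 with 1 array left out (4 without FAP depleted replicate 2). With 1 array left out they were 0 to 16 for aSMA (16 without labelled aSMA depleted replicate 3) and 0 to 1 for the difference of effects. Between the control groups the 2350 calls became 5104 at an adjusted p under 0.1, 5769 with median centring, 12443 as deposited, 1543 with an offset of 50, 258 with dim genes left out, 6658 with array weights, 383 without the 3 arrays, 1012 with separation as a covariate (chosen after seeing the data), 218 with only the groups compared, and 506 to 3115 with 1 array left out. Of the calls, 61.3% were higher in the aSMA-TK controls, against 3.41% as deposited, where the median of all genes was -0.39. Reversed values in the FAP comparison were Mmp2 at 0.067 with the offset, 1.06 with weights and 0.69 without the 3 arrays, Mmp9 at 0.23, Mmp14 at 0.40 and Timp3 at 0.55 with weights, and Timp1 at -0.0753 and Timp2 at -0.30 with the covariate. In the aSMA comparison Mmp13 was 0.012 with median centring, 0.11 with the offset and 0.12 with weights. In the difference of effects Mmp7 was -1.497 without the 3 arrays and Mmp11 -0.056 with weights. Between the control groups Mmp3 was 0.020 with the offset and 0.082 with weights, Mmp7 was 1.28 without the 3 arrays and 0.27 with the covariate, and Mmp9 was -0.076 as deposited and -0.32 without the 3 arrays. There Mmp13 was -0.14 as deposited, -0.36 without the 3 arrays and -0.29 with the covariate, and Timp1 was -0.33 with median centring, -0.78 as deposited, -0.30 with weights, -0.83 without the 3 arrays and -1.22 with the covariate. With 1 array left out, FAP differences that reversed ranged from -0.78 to 1.41 for Mmp2, -0.49 to 0.20 for Mmp9, -0.86 to 0.73 for Mmp14, -0.57 to 1.17 for Timp1, -0.48 to 1.03 for Timp2 and -0.62 to 0.45 for Timp3. For aSMA they ranged from -0.46 to 0.71 for Mmp3, -1.18 to 0.64 for Mmp13 and -0.00924 to 2.19 for Timp1. Differences of effects ranged from -0.078 to 1.10 for Mmp3, -0.87 to 1.72 for Mmp7, -0.011 to 0.71 for Mmp11, -0.59 to 1.23 for Mmp13 and -0.42 to 1.85 for Timp1. Between the control groups they ranged from -0.63 to 0.18 for Mmp2, -0.57 to 0.29 for Mmp3, -1.02 to 0.075 for Mmp14, -0.80 to 0.57 for Timp1, -0.56 to 0.38 for Timp2 and -0.87 to 0.21 for Timp3. The cause of these changes was not tested. No paired analysis was possible because the labels number the mice singly across the groups, and the replicate numbers used here follow the order of the samples and only name them. The signal over background limits Mmp3, Mmp9, Mmp11, Mmp13 and Timp3, which exceeded the background limit on no array.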
